A study of Mus musculus with 10 samples.

Results

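The genes described here are 8 genes of adenosine and nucleoside metabolism in mouse T helper cultures: Entpd1, Nt5e, Adora2a, Ada, Dpp4, Adk, Pnp and Upp1. They were named for their function, and Nt5e and Upp1 were picked because earlier results of these data showed them higher in Th17 cultures. Each gene was read from a probe set with exactly 1 gene symbol, taking the one with the highest mean over the 10 arrays. The probe table held such a probe set for 7 of the 8 genes, out of 22180 genes in all. Adora2a, an adenosine receptor, was not analysed here.

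The arrays measured RNA of CD4-positive lymphocytes from spleens of wild-type female Balb/c mice aged 10 to 14 weeks, with 1 array for each sample. Every well was stimulated through CD3 and CD28, with 4 µg/ml of the first antibody and 30 ng/ml of the second, and the medium was changed after 72 h. Th0 control cultures (n = 3) received nothing else. Th2 cultures (n = 3) also received IL-4 (100 ng/ml) and an antibody against interferon gamma (10 µg/ml), and Th17 cultures (n = 4) received IL-6 (20 ng/ml), TGF-beta (5 ng/ml), IL-23 (10 ng/ml) and the same antibody. Th0 therefore differs from both other groups in that antibody as well, whereas Th17 and Th2 cultures share it. The labels describe no sort after culture, so each value is an average over all cells of the wells. In such bulk samples fewer cells of a type and less RNA per cell cannot be told apart. The titles call the replicates biological. Whether they stem from different animals is not stated in the labels, so p-values measure only the spread between these samples.

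Adenosine is made outside cells in a pair of steps. ENTPD1 (CD39) takes phosphates off ATP and ADP, and NT5E (CD73) takes the last phosphate off AMP. The adenosine then acts on receptors such as ADORA2A, which dampens T cell activation, or it is removed. Adenosine deaminase (ADA) turns it into inosine, and adenosine kinase (ADK) turns it back into AMP inside the cell. PNP splits purine nucleosides such as inosine and guanosine, and its loss or that of ADA leaves T cells badly depleted in humans. UPP1 splits uridine in the same way and so belongs to pyrimidine salvage. DPP4 (CD26) is a surface peptidase of T cells that, in humans, also holds ADA on the cell surface.

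The culture markers mostly followed the labels, and several arrays stood apart. Il17f was between 9.55 and 10.94 on the Th17 arrays and at 6.66 or below on the others, and Cd3e was at 9.36 or above on all 10 arrays (RMA log2 values, the scale of every level below). Th2 markers (7 of 8 measured) had array means of 7.88 or above in Th2 cultures and 7.82 or below in the others. Of the 7, 6 were higher in mean in Th2 than in Th0 cultures, and 0 were called. Gata3, a defining Th2 factor, was the 1 that was lower, at 7.52 in Th2 and 7.75 in Th0 (difference -0.23 ± 0.30 SE, limma, adjusted p = 0.927). Its mean in Th17 cultures was 5.83. Median values over all probe sets lay between 3.39 and 3.61, which places a level near 3.5 in the middle of all probe sets. On the first principal component of all genes, Th2 replicates 2 and 3 and Th17 replicate 4 lay at 37.5 to 55.8 and the other arrays at -0.96 or below. Markers of basophils and mast cells (9 of 9 measured) were highest on Th0 replicate 1, with a mean of 6.72, and on Th17 replicates 2 (5.60) and 3 (5.74). They averaged at most 4.32 on the remaining arrays. The members' results are given with and without these arrays where they move, as are those of the pathway genes that rest on the 3 arrays apart.

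Nt5e and Upp1 stood higher on every Th17 array than on every Th0 and Th2 array, and the other 5 measured members did not separate the groups in any comparison. Because Nt5e and Upp1 were chosen for that rise, their Th17 differences are a description and carry no test. Across all genes, 0.0947% were called higher in Th17 than in Th0 cultures (limma, adjusted p under 0.05) and 0.0586% higher in Th17 than in Th2. Nothing is read from the presence of these members among them. The choice did not set Th2 against Th0, but a rise over both groups uses the same Th0 and Th2 arrays. Results of Nt5e and Upp1 in Th2 against Th0 are therefore not independent of the choice. The other members were not chosen by their values. Of all genes, 3.22% were higher on every Th17 array than on every Th0 array, and 2.6% than on every Th2 array.

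**Figure D1:**
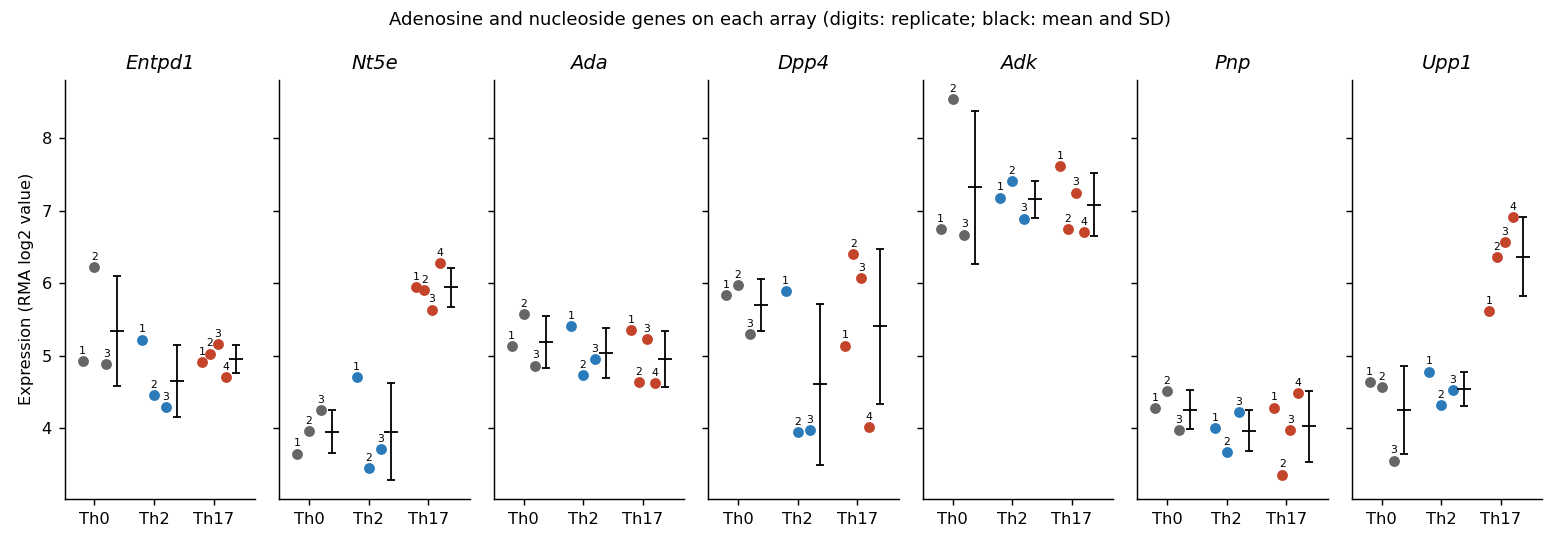
Expression of the 7 measured genes on each array (RMA log2 value, vertical axis) by culture group (horizontal axis). Each point is 1 array with its replicate number, and the black mark and bar are the group mean and SD. The 4 Th17 points of Nt5e lie at 5.63 or above and those of Upp1 at 5.62 or above, clear of all Th0 and Th2 points, while the groups overlap for the other 5 genes. Heights of different genes are not comparable, since each has its own probe set.

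Nt5e (probe set 17520073), the enzyme of the step from AMP to adenosine, read 3.65, 3.96 and 4.24 on Th0 replicates 1 to 3. It read 4.71, 3.44 and 3.70 on Th2 replicates 1 to 3, and 5.94, 5.91, 5.63 and 6.28 on Th17 replicates 1 to 4. The Th0 and Th2 readings lay between 3.44 and 4.71, and the lowest Th17 reading was above the highest of the rest, that of Th2 replicate 1. Group means were 3.95 ± 0.30 (SD, n = 3) in Th0, 3.95 ± 0.67 (SD, n = 3) in Th2 and 5.94 ± 0.26 (SD, n = 4) in Th17 cultures. The difference of Th17 from Th0 was 1.99 ± 0.28 (SE), and from Th2 it was likewise 1.99 ± 0.28 (SE), a 3.97-fold higher level in each case. Fold changes of probe sets with low signal are compressed by this type of array summary.

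The level of Nt5e did not differ between Th2 and Th0 cultures beyond the spread of the arrays. The difference was 0.00 ± 0.30 (SE), with a 95% interval from -0.67 to 0.67 (limma, adjusted p = 1.000). A difference of up to that size in either direction is therefore not told apart from none. Th2 replicate 1 carried much of the spread in that group: without it Th2 stood at -0.38 against Th0 (adjusted p = 0.498). With Th2 replicate 1 as the lone Th2 array, after removal of the 3 arrays apart on the first component, it stood at 0.76 ± 0.26 (SE, adjusted p = 0.927), where that array is assumed to vary like the other groups.

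Upp1 (probe set 17247225), uridine phosphorylase, read 4.64, 4.56 and 3.55 on Th0 replicates 1 to 3. It read 4.78, 4.32 and 4.52 on the Th2 arrays, and 5.62, 6.36, 6.57 and 6.91 on Th17 replicates 1 to 4. Th0 replicate 3 was the lowest array and Th17 replicate 1 the lowest of its group, still above all 6 arrays of the other groups. Means were 4.25 ± 0.61 (SD, n = 3) in Th0, 4.54 ± 0.23 (SD, n = 3) in Th2 and 6.36 ± 0.55 (SD, n = 4) in Th17 cultures. Th17 exceeded Th0 by 2.11 ± 0.33 (SE, 4.32-fold) and Th2 by 1.82 ± 0.33 (SE, 3.54-fold). Between Th2 and Th0 the difference was 0.29 ± 0.35 (SE) with a 95% interval from -0.48 to 1.06 (limma, adjusted p = 0.915), which did not pass the test. Without the low Th0 replicate 3 it was -0.06. Upp2, the related phosphorylase, read between 2.54 and 3.11 on all 10 arrays, below every array's median, and differed by -0.08 ± 0.17 (SE) between Th17 and Th0 (adjusted p = 0.999).

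The size of both differences was recomputed with arrays left out. Because Nt5e and Upp1 were chosen for this rise, the ranges describe the same values and do not test it. With each array left out in turn, Nt5e differed between Th17 and Th0 by 1.84 to 2.13 and Upp1 by 1.76 to 2.36. Against Th2 the ranges were 1.73 to 2.37 for Nt5e and 1.64 to 2.07 for Upp1. Without the 3 arrays apart on the first component the Th17 minus Th0 differences were 1.88 for Nt5e and 1.93 for Upp1. Against the lone Th2 replicate 1 they were smaller, at 1.12 for Nt5e and 1.40 for Upp1. With the 3 arrays rich in basophil and mast cell transcripts removed, Nt5e differed by 2.01 and Upp1 by 2.21 between Th17 and Th0.

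Nt5e is also found on regulatory and naive T cells and on B cells, so marker lists of those cells were read on the same arrays. Markers of regulatory T cells (9 of 10 measured) had array means of 6.36 to 7.33 in Th17 and 7.26 to 7.66 in Th0 cultures, and only Th17 replicate 1 reached the Th0 range. Foxp3, their defining factor, read 6.70 to 7.55 in Th17 and 7.26 to 8.25 in Th0 cultures. Naive T cell markers (6 of 8 measured) had means of 8.14, 8.36, 8.20 and 6.65 on Th17 replicates 1 to 4 against 7.03 to 7.67 in Th0, and Th17 replicate 4, the lowest of these, was the highest for both Nt5e and Upp1. B cell markers (9 of 10 measured) had means of 3.34 to 4.25 in Th17 and 3.56 to 4.23 in Th0 cultures. In Th2 cultures the means were 6.23 to 7.57 for regulatory, 6.21 to 7.87 for naive and 3.42 to 3.83 for B cell markers. Th17 replicates 1 to 3 thus lay above every Th2 array for naive markers, and Th17 replicate 4 did not. CD8 and NK cell markers (8 of 8) overlapped too, at 4.26 to 4.60 in Th17 and 3.96 to 4.39 in Th0, but lay above the 3.74 to 3.82 of Th2. Among the 8, Klrd1 (CD94, a receptor chain of NK and some T cells) read 5.84 to 7.17 on the Th17 arrays and 3.69 to 4.85 on the others, while Ncr1, a defining NK receptor, read 4.36 or below on all arrays and Cd8a 5.63 or below. Their part in the Nt5e and Upp1 levels was not tested.

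The stretches before the start sites of Nt5e and Upp1, the 2 genes chosen for their rise on the 4 Th17 arrays, are shown. They are the 250 bases before the annotated start in RefSeq (GRCm38.p6), both on the plus strand: chr9:88327359-88327608 for Nt5e and chr11:9117758-9118007 for the first of 3 annotated starts of Upp1. Capitals mark matches to any of the motifs searched on both strands.

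Nt5e: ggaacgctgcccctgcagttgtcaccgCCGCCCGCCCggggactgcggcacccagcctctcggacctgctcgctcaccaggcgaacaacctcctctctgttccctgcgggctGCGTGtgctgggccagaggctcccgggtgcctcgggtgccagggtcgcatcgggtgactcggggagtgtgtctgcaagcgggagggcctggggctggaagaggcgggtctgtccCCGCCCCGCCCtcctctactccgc

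Upp1: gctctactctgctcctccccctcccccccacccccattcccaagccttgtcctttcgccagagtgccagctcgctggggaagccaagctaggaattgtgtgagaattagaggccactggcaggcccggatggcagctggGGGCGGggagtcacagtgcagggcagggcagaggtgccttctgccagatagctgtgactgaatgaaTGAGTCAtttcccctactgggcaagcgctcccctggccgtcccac

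The motifs searched were TTCNNNGAA (STAT factors), TGANTCA (AP-1), GTCTAGAC (SMAD palindrome), TGACGTCA (cAMP response element), GCGTG (core of the dioxin response element), AGGTCA (site of ROR and other nuclear receptors) and GGGCGG (GC box). In the Nt5e stretch GGGCGG matched 4 times on the minus strand, in 2 overlapping pairs, 1 of which lay 24 to 14 bases before the start. GCGTG matched once, 138 bases before it. In the Upp1 stretch TGAGTCA, a match to the AP-1 motif, began 45 bases before the start, and a GC box began 111 bases before it. No letters matched the STAT, SMAD, cAMP or ROR motifs in either stretch, nor in the stretches before the other Upp1 starts. The stretch before Upp1 start 2 overlaps the printed one and holds the same AP-1 and GC box letters. Before Upp1 start 3 neither of these motifs matched, and GCGTG began 54 bases before the start. The matches of Upp1 thus depend on the annotated start. Over 32536 different stretches of the same length before RefSeq starts, 6.73% held the AP-1 motif, 33.0% a GC box, 28.3% GCGTG, 7.04% the STAT motif and 14.0% the ROR motif. The stretch of Nt5e was 72.0% G or C with 21 CG pairs, that of Upp1 62.4% with 6, and the median stretch 52.4% with 6. Among the other members the STAT motif matched once, in the stretch of Ada (TTCCGGGAA, 90 bases before the start). A match is a matter of letters only and says nothing of binding in these cells.

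Profiles over the 10 arrays were compared by the root mean square difference of log2 values after each gene was centred on its mean, among 17302 genes with a proper name (without gene models, small RNAs, receptor segments of lymphocytes and odour receptors). The 5 genes nearest to Nt5e were Fam3c (0.36), Plod2 (0.39), Cpox (0.40), Adam19 (0.41) and Cldnd1 (0.41), against a median of 1.08 over all genes. Nearest to Upp1 were Plod2 (0.47), Klrc1 (0.53), Nt5e itself (0.54), Ptprj (0.55) and Itgae (0.55), against a median of 1.09. From Nt5e, Upp1 ranked 14. All of these genes were higher on each Th17 array than on every Th0 and Th2 array, which their likeness to the chosen genes makes likely from the outset. Plod2, a lysyl hydroxylase that modifies collagen and the only gene among the 5 nearest to both, had means of 4.56 in Th0, 4.26 in Th2 and 6.28 in Th17 cultures. Cpox, an enzyme of heme synthesis, had means of 5.83, 5.69 and 7.47, and Itgae, the integrin chain CD103, 3.97, 3.68 and 6.05.

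**Figure D2:**
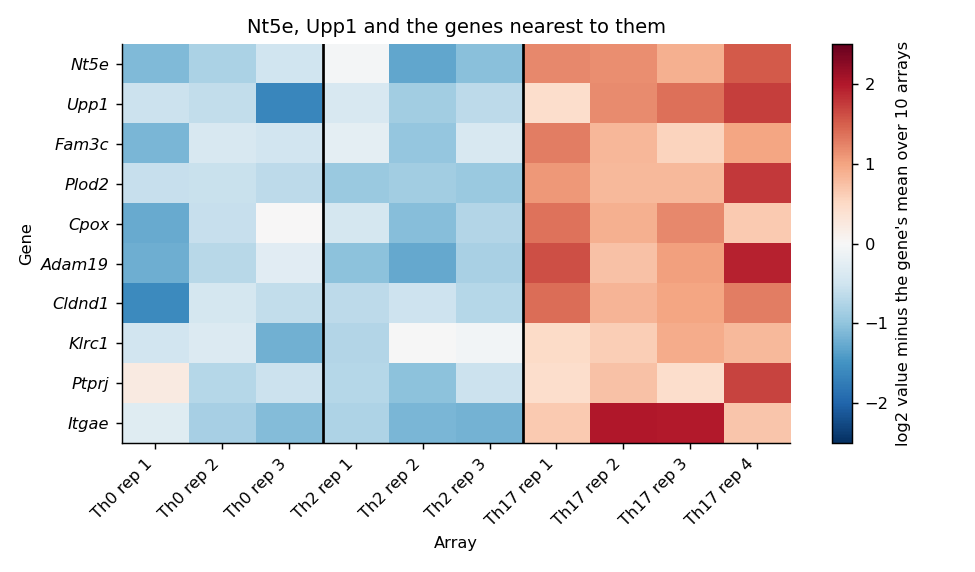
Profiles of Nt5e, Upp1 and the genes nearest to either (rows) on the 10 arrays (columns, grouped by black lines into Th0, Th2 and Th17). Colour is the log2 value minus the mean of that gene over the 10 arrays. All rows are red on the 4 Th17 arrays, and Upp1 is lowest on Th0 replicate 3.

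Entpd1 (probe set 17359344), the enzyme upstream of Nt5e, did not follow it. It read 4.93, 6.22 and 4.88 on the Th0 arrays, 5.22, 4.46 and 4.28 on the Th2 arrays and 4.91, 5.03, 5.15 and 4.70 on the Th17 arrays. Th0 replicate 2 was the highest array by far, and the groups overlapped. Th17 differed from Th0 by -0.40 ± 0.33 (SE; 95% interval -1.12 to 0.32; limma, adjusted p = 0.999) and from Th2 by 0.29 ± 0.33 (SE; interval -0.43 to 1.01; adjusted p = 0.960). Th2 differed from Th0 by -0.69 ± 0.35 (SE; interval -1.46 to 0.08; adjusted p = 0.803). Without Th0 replicate 2 the difference of Th17 from Th0 was 0.04. Entpd1 is also made by B cells and myeloid cells. B cell markers averaged 4.23 on Th0 replicate 2, against 3.97 and 3.56 on the other Th0 arrays. Myeloid markers (12 of 12 measured) averaged 3.39 there, against 3.55 and 3.31. Regulatory T cell markers averaged 7.40 on Th0 replicate 2, against 7.26 and 7.66 on the other Th0 arrays. By group these regulatory markers averaged 7.44 in Th0, 6.72 in Th2 and 6.78 in Th17 cultures. The part of these cells in the level of Entpd1 was not tested.

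Ada (probe set 17394063), which deaminates adenosine, read 5.13, 5.57 and 4.86 on the Th0 arrays. Its Th2 readings were 5.41, 4.73 and 4.95 and its Th17 readings 5.35, 4.63, 5.22 and 4.62. The 3 groups covered nearly the same range. Th17 differed from Th0 by -0.23 ± 0.25 (SE; 95% interval -0.78 to 0.32; limma, adjusted p = 0.999) and from Th2 by -0.08 ± 0.25 (SE; interval -0.63 to 0.48; adjusted p = 0.996). Th2 differed from Th0 by -0.16 ± 0.27 (SE; interval -0.75 to 0.44; adjusted p = 0.952).

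Dpp4 (probe set 17385719), the surface peptidase CD26, varied more within groups than between them. It read 5.83, 5.97 and 5.29 on the Th0 arrays, 5.89, 3.95 and 3.97 on Th2 replicates 1 to 3, and 5.14, 6.40, 6.07 and 4.01 on Th17 replicates 1 to 4. The 3 low readings are those of the arrays apart on the first component, and all others lay at 5.14 or above. Over all arrays Th2 differed from Th0 by -1.10 ± 0.63 (SE; 95% interval -2.47 to 0.28; limma, adjusted p = 0.815), and Th17 from Th2 by 0.80 ± 0.59 (SE; adjusted p = 0.936). Th17 differed from Th0 by -0.29 ± 0.59 (SE; adjusted p = 0.999). Without the 3 low arrays these differences were 0.19 (with Th2 replicate 1 as the lone Th2 array), -0.02 and 0.17. T cell identity genes (10 of 12 measured) averaged 8.68 to 8.72 on the 3 arrays and 9.05 to 9.61 on the others, and cell cycle genes (19 of 20 measured) 6.44 to 6.60 against 6.54 to 7.95. Their part in the level of Dpp4 was not tested.

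Adk (probe set 17297576), adenosine kinase, read 6.75, 8.54 and 6.67 on the Th0 arrays, 7.18, 7.40 and 6.89 on the Th2 arrays and 7.61, 6.75, 7.25 and 6.71 on the Th17 arrays. The groups overlapped. Th0 and Th2 did so only through the high Th0 replicate 2, since the other Th0 arrays read lower than each Th2 array. Th17 replicate 4 lay between Th0 replicates 3 and 1. Differences were -0.24 ± 0.41 (SE; 95% interval -1.15 to 0.67; limma, adjusted p = 0.999) for Th17 minus Th0 and -0.08 ± 0.41 (SE; interval -0.98 to 0.83; adjusted p = 0.996) for Th17 minus Th2. For Th2 minus Th0 the difference was -0.16 ± 0.44 (SE; interval -1.13 to 0.81; adjusted p = 0.970). Without Th0 replicate 2 the differences from Th0 were 0.37 for Th17 and 0.45 for Th2.

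Pnp (probe set 17299551), purine nucleoside phosphorylase, read 4.27, 4.51 and 3.97 on the Th0 arrays. On the Th2 arrays it read 4.00, 3.67 and 4.22, and on the Th17 arrays 4.28, 3.36, 3.97 and 4.48. The groups overlapped, and probes of Pnp may also bind RNA of the closely related Pnp2. Th17 differed from Th0 by -0.23 ± 0.26 (SE; 95% interval -0.80 to 0.34; limma, adjusted p = 0.999) and from Th2 by 0.06 ± 0.26 (SE; interval -0.51 to 0.63; adjusted p = 0.996). Th2 differed from Th0 by -0.29 ± 0.28 (SE; interval -0.90 to 0.32; adjusted p = 0.890). Pnp2 had its own probe set and read between 2.19 and 2.80 on all arrays.

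Of the 5 members not chosen by their values, 0 were called in any of the 3 comparisons (limma, adjusted p under 0.05), and 0 reached an unadjusted p under 0.05. The calls over all genes were 0.104% in Th17 against Th0, 0.0766% in Th17 against Th2 and 0% in Th2 against Th0. None of the 5 had groups without overlap, where 7.57%, 5.6% and 8.43% of all genes did. The intervals are wide. The upper end for Th17 minus Th0 was between 0.32 and 1.00 for these genes, so a rise up to those sizes is not told apart from none here.

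**Figure D3:**
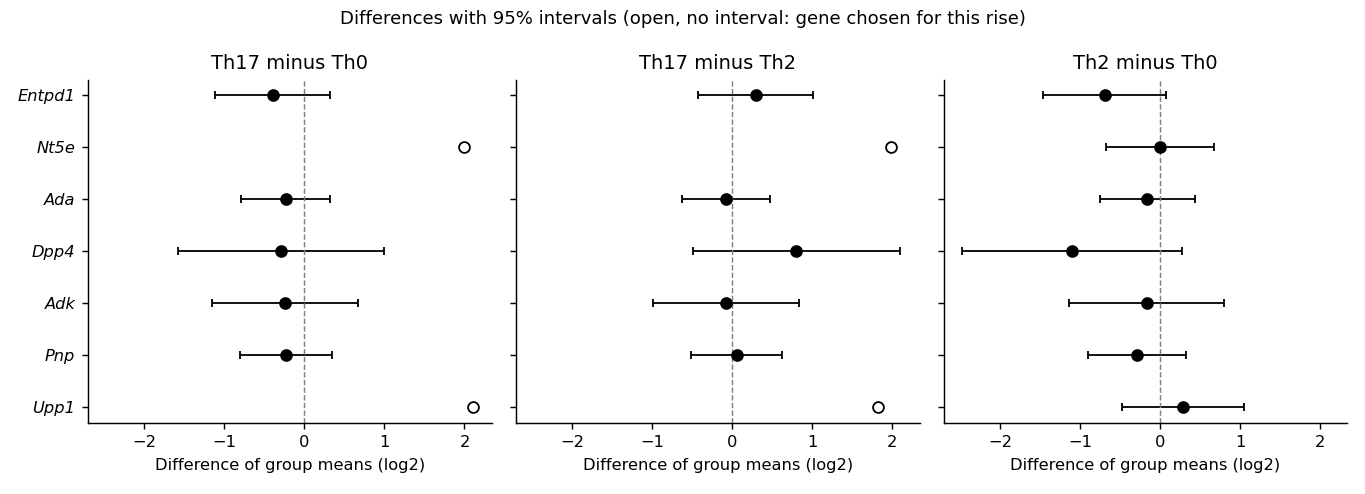
Differences of group means (log2, horizontal axis) of the 7 measured genes in the 3 comparisons. Bars are 95% intervals of the moderated fit, and open points without a bar are Nt5e and Upp1 in the comparisons they were chosen for. All 17 intervals shown include 0, among them those of Nt5e and Upp1 in Th2 against Th0.

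The order of the group means differed from gene to gene. For Nt5e and Upp1 the order was Th17, then Th2 and Th0, and these last groups did not differ beyond their spread. For Entpd1 and Dpp4 it was Th0, Th17, Th2, and for Ada and Adk Th0, Th2, Th17. For Pnp it was Th0, Th17, Th2. No neighbours in these orders of the last 5 genes differed beyond their spread. Th0 replicate 2 was the highest Th0 array for Entpd1, Ada, Dpp4, Adk and Pnp alike.

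The wider pathway was read from 8 lists of genes grouped by role, with 83 of 97 genes measured, the 7 members included. In Th17 against Th0, the calls among the 83 were Nt5e and Upp1, which were chosen for this rise, so nothing is read from them beside the 0.104% called over all genes. The median difference over the 83 was -0.07 beside -0.02 over all genes. Of the other 81 genes 0 were called (limma), with 4 at an unadjusted p under 0.05. In Th17 against Th2 the call was Nt5e, likewise chosen (0.0766% over all genes), and 0 of the other 81 were called (limma), with 9 of the other 81 at an unadjusted p under 0.05 and a median of -0.02 beside -0.01 over all genes. In Th2 against Th0, 0 of 83 were called (0% over all genes), with 7 at an unadjusted p under 0.05 and a median of -0.07 beside -0.01. Over all genes 5.17%, 6.25% and 6.34% had an unadjusted p under 0.05 in the 3 comparisons.

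**Figure D4:**
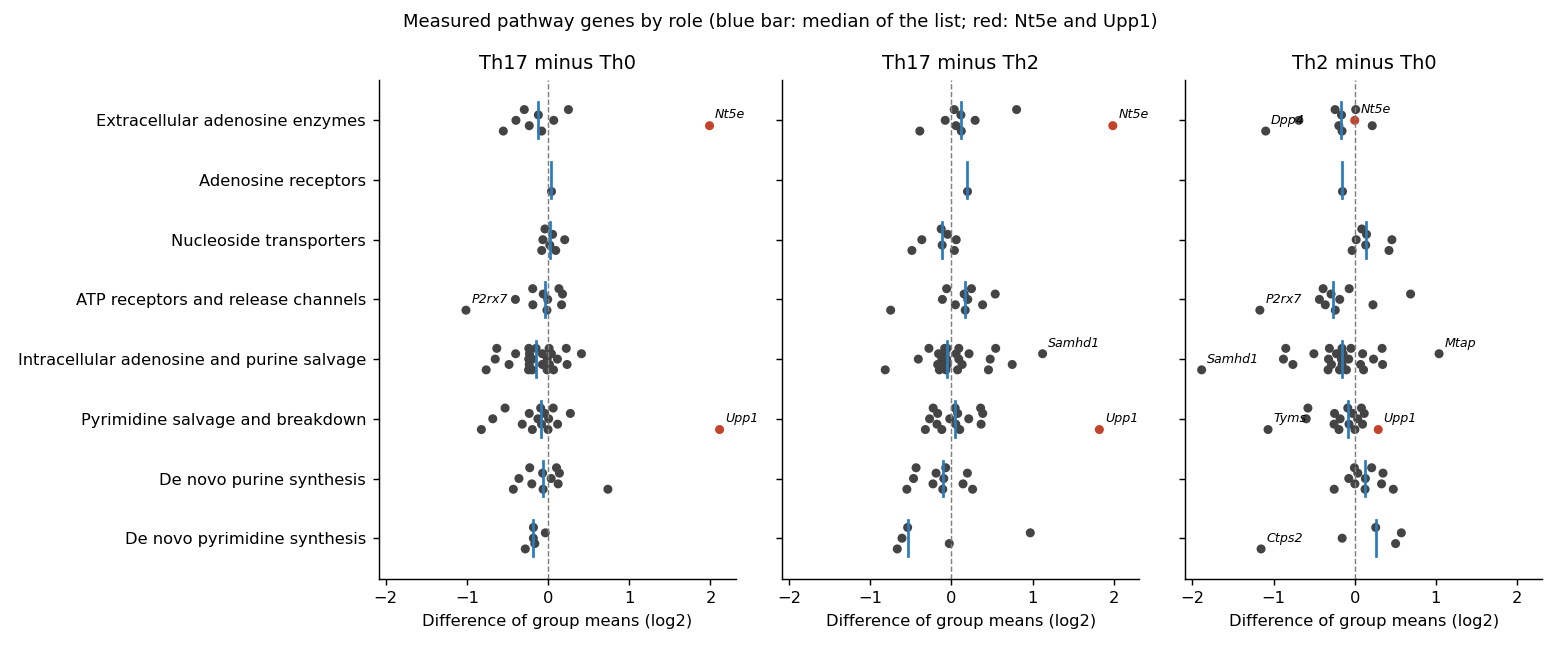
Differences of group means (log2, horizontal axis) of the 83 measured pathway genes by role (rows) in the 3 comparisons. Each point is a gene, blue bars are list medians, red points are Nt5e and Upp1, and other genes past 1 in either direction are named. Nt5e at 1.99 and Upp1 at 2.11 stand apart in Th17 minus Th0, where the other genes lie between -1.01 (P2rx7) and 0.74. Samhd1 at -1.89 is lowest in Th2 minus Th0.

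Among enzymes of extracellular adenosine, 9 of 12 were measured. Besides Nt5e, Entpd1, Dpp4 and Ada, Alpl, the tissue-nonspecific alkaline phosphatase that can also strip phosphates from AMP, read 5.67, 4.71 and 5.22 on the Th0 arrays and 4.53 to 4.73 on the Th17 arrays. Its difference of -0.55 ± 0.23 (SE) did not pass the test (limma, adjusted p = 0.928). Of 4 adenosine receptors only Adora3 was measured; it read 2.77 to 3.64 on all arrays and differed by 0.03 ± 0.22 (SE) between Th17 and Th0 (adjusted p = 0.999).

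The 7 nucleoside transporters, which carry adenosine and uridine across membranes, differed between Th17 and Th0 by -0.08 to 0.21. Slc29a3, an equilibrative transporter of lysosomes, read 5.54, 5.76 and 6.08 on the Th2 arrays and 5.18 to 5.48 on the Th0 arrays. That difference of 0.46 ± 0.21 (SE) did not pass (limma, adjusted p = 0.789). The groups did not overlap, as was so for 4.48% of all genes in that direction. Against the lone Th2 replicate 1, without the 3 arrays apart, it was 0.20 ± 0.25 (SE). Slc29a1, the main transporter of the plasma membrane, differed by -0.06 ± 0.25 (SE) between Th17 and Th0 (adjusted p = 0.999) and by -0.49 ± 0.25 (SE) between Th17 and Th2 (adjusted p = 0.864), and the latter was 0.18 ± 0.24 (SE) without the 3 arrays apart.

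Among the 10 genes listed as P2 family receptors and ATP release channels, P2rx7 showed the widest separation from Th0. This ion channel opens at high levels of ATP, the substrate of Entpd1. It read 5.84, 6.28 and 6.07 on the Th0 arrays, 5.80, 4.52 and 4.38 on the Th2 arrays and 5.12, 5.25, 5.31 and 4.54 on the Th17 arrays. All Th2 and Th17 arrays lay below all Th0 arrays. Both groups received the antibody against interferon gamma and added cytokines, whose parts cannot be told apart here and were not tested. Of all genes, 4.35% lay lower on every Th17 array than on every Th0 array, and 3.94% did so on the Th2 arrays. The differences of -1.01 ± 0.32 (SE) for Th17 and -1.17 ± 0.34 (SE) for Th2 did not pass the test (limma, adjusted p = 0.711 and 0.767), and both use the same Th0 arrays. Without the 3 arrays apart they were -0.84 ± 0.16 (SE) and -0.27 ± 0.23 (SE), with adjusted p = 0.120 and 0.927. Panx1, a channel that lets ATP out, was at 7.08 in Th17 and 6.54 in Th2 cultures on average (difference 0.54 ± 0.23 SE, adjusted p = 0.748), and the difference was 0.11 ± 0.29 (SE) without the 3 arrays apart.

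Of the 25 measured genes of intracellular adenosine and purine salvage, 17 had lower and 8 higher means in Th17 than in Th0 cultures, and 0 were called (limma). Samhd1, which breaks down deoxynucleotides, read 9.44 to 10.66 on the Th0 arrays, 9.67, 7.59 and 7.41 on Th2 replicates 1 to 3 and 9.65, 10.00, 9.92 and 7.82 on Th17 replicates 1 to 4. As for Dpp4, the 3 low readings were those of the arrays apart on the first component. Its difference of Th2 from Th0 was -1.89 ± 0.67 (SE, adjusted p = 0.767), and without the 3 low arrays -0.44 ± 0.40 (SE, adjusted p = 0.927). Mtap, which salvages adenine from methylthioadenosine, read 5.62, 6.69 and 6.30 on the Th2 arrays and 4.70 to 5.70 on the Th0 arrays, a difference of 1.04 ± 0.29 (SE, adjusted p = 0.767). Nt5c, a cytosolic nucleotidase, read 7.73, 6.56 and 7.09 on the Th2 arrays and 7.78 to 8.03 on the Th0 arrays, a difference of -0.76 ± 0.26 (SE, adjusted p = 0.767). For Nt5c the groups did not overlap, as was so for 3.94% of all genes in that direction. Without the 3 arrays apart, with Th2 replicate 1 as the lone Th2 array, these differences were 0.45 ± 0.34 (SE) for Mtap and -0.16 ± 0.21 (SE) for Nt5c.

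Around Upp1, 16 of 17 genes of pyrimidine salvage and breakdown were measured. Tyms, thymidylate synthase, read 6.38 to 6.83 on the Th0 arrays and 5.58 to 6.33 on the Th17 arrays (difference -0.68 ± 0.38 SE, limma, adjusted p = 0.999). These groups did not overlap, as was so for 4.35% of all genes in that direction. Tk1, thymidine kinase, differed by -0.82 ± 0.45 (SE, adjusted p = 0.999). Both are made by dividing cells, and cell cycle genes had array means of 6.54 to 7.51 in Th17 and 7.41 to 7.90 in Th0 cultures; their part was not tested. Uck2, which phosphorylates uridine in place of splitting it, read between 7.79 and 8.75 on all arrays.

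De novo synthesis genes gave 0 calls in each comparison (limma) among the 11 measured for purines and the 5 for pyrimidines. Prps1, which makes the ribose phosphate donor of both routes, read 8.14 to 8.96 on the Th17 arrays and 7.49 to 7.98 on the Th0 arrays (difference 0.74 ± 0.29 SE, adjusted p = 0.901). These groups did not overlap, as was so for 3.22% of all genes in that direction. Adsl, adenylosuccinate lyase, read 5.96 to 6.21 in Th17 and 6.59 to 6.80 in Th2 cultures (difference -0.55 ± 0.16 SE, adjusted p = 0.495). Here too the groups did not overlap, as was so for 3% of all genes in that direction. Cad, which starts pyrimidine synthesis, was lower in mean by 0.67 ± 0.25 (SE) in Th17 than in Th2 cultures (adjusted p = 0.678).

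Leaving out Th2 replicate 1, whose profile was unlike that of the other Th2 arrays, changed the pathway counts of the comparisons with Th2. The Th2 group then held only the arrays apart on the first component. In Th2 against Th0, 6 pathway genes were then called (limma), where 1.94% of all genes were (0.798% higher and 1.15% lower). Mtap was higher by 1.33 and Ctps, CTP synthase, by 0.91 (adjusted p = 0.0368 and 0.0496). Tyms was at -1.64, P2rx7 at -1.62, Dck, deoxycytidine kinase, at -1.59 and Nt5c at -1.06 (adjusted p from 0.0192 to 0.0349). In Th17 against Th2, Nt5c at 1.05 and Ctps at -0.94 were called in that setting beside Nt5e and Upp1, where 1.34% of all genes were (0.866% higher and 0.478% lower). None of the 5 members not chosen by their values was among them. The opposite choice, without the 3 arrays apart, left Th2 replicate 1 as the lone Th2 array. Th2 minus Th0 was then 0.071 ± 0.32 (SE) for Tyms, 0.55 ± 0.29 (SE) for Dck and -0.090 ± 0.20 (SE) for Ctps. Th17 minus Th2 was 0.027 ± 0.20 (SE) for Ctps and 0.23 ± 0.21 (SE) for Nt5c.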

How the data were processed

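The deposited values are on a log2 scale, and the submitters' processing notes name RMA and Affymetrix Expression Console 1.3.0.187. RMA corrects background, applies quantile normalization between arrays and summarises the probes of each set. Quantile normalization hides changes in total RNA, and RMA compresses differences of weak signals. Build and annotation: not given in the sources used here.

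Probe sets were named through the platform's probe table, and 22180 genes remained from 23521 probe sets with 1 symbol. limma 3.58.1 in R 4.3.3 was fitted to all genes and all 10 arrays (group means, lmFit and eBayes, 7 residual degrees of freedom). Two-sided p-values were adjusted over all genes of a comparison (Benjamini-Hochberg), with calls under 0.05. The procedure was tested on simulated data. The number of arrays limits the precision.

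The members and lists were chosen with earlier results of these data known. Genes named are the 8 members, called pathway genes, those with the largest differences in each list, paralogs, the genes nearest to Nt5e and Upp1 and a few culture markers; Uck2, Klrd1 and Dck were named after their values were seen. Groups and replicate numbers came from the titles; the description of Th2 replicate 3 carries the number 4. Alternatives covered low values, probe sets, normalization, the fit, the replicate block and left-out arrays. Promoter sequences are RefSeq's (GRCm38.p6), found for all 7 measured members, with 11 starts in all.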

Additional observations from a re-analysis of the deposited data

How the results depend on the processing

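The differences of the 7 measured members were recomputed under 19 alternatives, 10 of which left out 1 array each. Of the 316 values with a test, 279 kept their sign, 37 changed it, and 0 passed the test, as with all arrays (limma). The other 74 are Nt5e and Upp1 in the Th17 comparisons, which were not tested and kept their sign. The largest move was that of Dpp4 in Th2 minus Th0, from -1.10 to 0.19 without the 3 arrays apart on the first component. Nt5e against Th2 moved from 1.99 to 1.12 there, where Th2 is a lone array. The cause of the changes of sign was not tested.

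With array weights, Th17 minus Th0 was 0.050 for Dpp4, Th17 minus Th2 was 0.15 for Ada, and Th2 minus Th0 was -0.38 for Nt5e and 0.012 for Adk. After a further quantile normalization Th2 minus Th0 was -0.057 for Nt5e. Without the 3 arrays apart on the first component, Th17 minus Th0 was 0.17 for Dpp4. Th17 minus Th2 was then -0.19 for Entpd1, -0.021 for Dpp4, 0.026 for Adk and -0.13 for Pnp, and Th2 minus Th0 was 0.22 for Ada and 0.19 for Dpp4. With the 3 arrays rich in basophil and mast cell transcripts removed, Th17 minus Th0 was 0.14 for Pnp, Th17 minus Th2 was -0.027 for Dpp4 and 0.0041 for Adk, and Th2 minus Th0 was -0.15 for Nt5e.

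Leaving out 1 array at a time gave Th17 minus Th0 differences of -0.63 to 0.044 for Entpd1, -0.62 to 0.17 for Dpp4 and -0.57 to 0.37 for Adk. Th17 minus Th2 ran from -0.23 to 0.11 for Ada, -0.25 to 0.048 for Adk and -0.094 to 0.28 for Pnp. Th2 minus Th0 ran from -0.38 to 0.25 for Nt5e, -0.34 to 0.037 for Ada, -0.49 to 0.45 for Adk and -0.061 to 0.48 for Upp1.

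The number of pathway genes called varied between settings, as did the number over all genes. In Th17 against Th0 the calls were Nt5e, Upp1, both or neither, each chosen for their rise, and 2 to 60 of all genes were called across settings (23 with all arrays). With all arrays 2 were called, and 1 with genes of a mean log2 value of at least 5 only, with only the 2 groups compared or without the 3 arrays apart. The count was 0 after a further quantile normalization or without the 3 arrays highest in basophil markers, and 0 to 2 without 1 array. In Th17 against Th2, 1 was called (0.0766% of all genes), 5 with array weights (330 of all genes), 0 with the minimum of 5, with only the 2 groups or without either set of 3 arrays, and 0 to 4 without 1 array, the 4 coming from leaving out Th2 replicate 1 (1.34% of all genes). In Th2 against Th0 the count was 0, and 0 to 6 without 1 array, the 6 again without Th2 replicate 1 (1.94% of all genes). Entpd1, Nt5e and Pnp lie below the minimum of 5 and have no value there.

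Arrays of different groups with the same number in their titles did not deviate together. Correlations of deviations from the group means were -0.31 to 0.30 over 9 such pairs. Over 24 pairs of different number they were -0.58 to 0.49, so the title numbers were not taken as pairs. The 0.49 was that of Th2 replicate 3, whose description carries the number 4, with Th17 replicate 4. Pairing by the number in the description was not tested. With the replicate number as a block, 0 pathway genes were called in each comparison. By the titles, replicate 4 exists in Th17 only, so the block takes that array out of the comparisons. Under the block, Th17 minus Th0 was 0.17 for Dpp4, and Th17 minus Th2 was 0.038 for Ada, 0.048 for Adk and -0.094 for Pnp. Signal over background was not measured, so its limit on the lower readings, such as those of Pnp2 and Upp2, is unknown.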
